A study of Mus musculus with 2 samples.

Results

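The enzymes considered here build and cap the sugar chains of mucins and of related glycoproteins and glycolipids. They were chosen by gene symbol, but with earlier results of these data known, so their shares below are not those of a blind choice. They cover the families Galnt, B3gnt, B3galt, B4galt, B4galnt, Gcnt, C1galt, St3gal, St6gal, St6galnac, St8sia, Fut and Chst, where the family name is followed by a digit. This gave 88 of the 18194 genes named on the arrays, measured by 179 probe sets, and a gene was represented by its probe set with the highest mean level. The study hybridised labelled total RNA of small intestine and of colon tissue to Affymetrix Mouse Genome 430 2.0 arrays, 1 array per tissue. Both tissues were biopsies of wild-type adult mice, and the number of animals per array is not stated in the labels. With 1 array per tissue no difference has a replicate check, no test was made, and the spread between animals is unknown.

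Mucins carry chains that start with N-acetylgalactosamine (GalNAc) on serine or threonine, which the Galnt enzymes attach in the Golgi. Galactose or N-acetylglucosamine (GlcNAc) is then added to form the core 1 or core 3 structure, Gcnt enzymes branch these into core 2 or core 4, and the chains grow by alternating GlcNAc and galactose. Sialic acid, fucose, further GalNAc and sulfate end the chains. In the gut these chains make up most of the mass of the secreted mucin molecules, which goblet cells release to form the mucus gel.

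Levels are given as log2 expression values, and a level of 5 was taken as background. Differences are small intestine minus colon after values under 5 were raised to 5, so that a fold against a tissue at background is a lower bound. Of the 88 genes, 48 were above background in small intestine and 51 in colon, 45 of them in both, and 34 were above it in neither. Of all 18194 named genes, 10418 were above it in small intestine, 10412 in colon and 11016 on either array, which are similar shares. A gene counts as higher in a tissue at 3-fold or more. By this rule 6 members (6.82%) were higher in small intestine, where 3.46% of all named genes were, and 17 members (19.3%) were higher in the colon, where 3.33% of all named genes were. All 6 differences in favour of the small intestine were measured above background on both arrays, as were 12 of the 17 in favour of the colon. At 2-fold the members numbered 10 (11.4%) for small intestine and 26 (29.5%) for colon, against 6.95% of all named genes for small intestine and 8.14% for colon. The small intestine share was not above that of all genes at 5-fold (1.14% of members and 1.7% of all genes) or with the median over each gene's probe sets (2.27% and 2.46%). In those settings the colon share was 11.4% of members against 1.43% of all genes, and 10.2% against 2.17%. The median difference over the 88 members was 0.00, as it was over all genes, and the 34 members at background enter as 0. In tissue RNA, fewer cells of a type and less RNA per cell cannot be told apart.

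Some markers moved with these counts. Of 9 goblet cell markers 5 were past 3-fold, all in favour of the colon, with a mean level of 11.65 in small intestine and 13.81 in colon, and single markers spanning 3.64 to 15.64 in small intestine and 9.70 to 15.88 in colon. Only Retnlb of the goblet markers lay at background, in the small intestine, and its levels of 3.64 there and 13.49 in colon widen the gap between the means. The goblet markers short of 3-fold differed little, with Tff3 (0.50) and Spink4 (0.09) on the small intestine side and Fcgbp (-0.22) and Zg16 (-0.23) on the colon side. Of 7 markers of the whole epithelium only villin (Vil1) reached 3-fold, and their mean level was 12.23 in small intestine and 12.11 in colon. All 6 measured enterocyte markers of the small intestine and all 5 colon markers were higher in the tissue they stand for. All 8 measured genes of the exocrine pancreas were higher on the colon array, with levels of 2.30 to 5.68 in the small intestine and 9.76 to 13.95 in the colon. Smooth muscle markers (4 of 6) and enteroendocrine markers (3 of 5) were likewise higher in the colon, and Paneth cell markers (3 of 4 measured) in the small intestine. The part of these cell types in the differences below was not tested. Among 18 probe sets of hybridization controls, added to samples in fixed amounts, 14 differed by -0.08 to 0.33 between the arrays. The 4 probe sets of the control bioC differed by -1.52 to -1.39, toward the colon and close to the 3-fold limit of 1.58. The 18 sets stand for fewer controls, since several measure the same one.

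**Figure D1:**
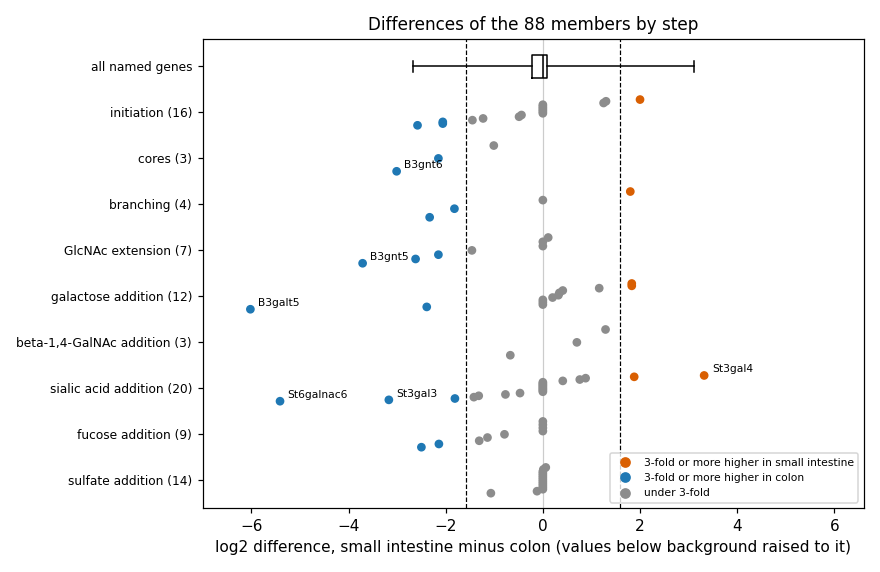
Log2 difference (small intestine minus colon) of each of the 88 members (points), by step of glycan synthesis, with the number of members in brackets. The box spans percentiles 25 to 75 of all 18194 named genes, with whiskers at percentiles 1 and 99, and dashed lines mark 3-fold. The 17 blue points lie at or left of -1.81 and the 6 orange points at or right of 1.80.

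Among the Galnt enzymes, which attach the first GalNAc, members of the same family were higher in opposite tissues. Galnt2 had a level of 8.84 in small intestine and 6.84 in colon, 4-fold higher in small intestine. Galnt12, whose human counterpart is strongly expressed in the digestive tract, had 9.23 in small intestine and 11.81 in colon, 6-fold higher in colon. Galnt4 had 10.93 in small intestine and 13.00 in colon (4.18-fold higher in colon). Galnt4 belongs, with Galnt7 and Galnt10, to the members known to add GalNAc to peptides that already carry it. Galnt5 had 5.97 in small intestine and 8.03 in colon (4.16-fold). Of the 16 measured Galnt genes, then, 1 passed 3-fold in favour of small intestine and 3 in favour of colon. The shares of all named genes were 3.46% and 3.33%. A further 4 Galnt genes lay between 2-fold and 3-fold. Galnt1, active in many tissues, had 11.19 in small intestine and 9.89 in colon (2.45-fold higher in small intestine), and Galnt6 had 9.78 in small intestine and 8.53 in colon (2.38-fold). Another probe set of Galnt6 went slightly the other way, with 5.83 in small intestine and 6.11 in colon (-0.28). Galnt3, an enzyme of secretory epithelia that is related to Galnt6, had 9.63 in small intestine and 10.86 in colon (2.34-fold higher in colon), and Galnt7 had 10.19 in small intestine and 11.64 in colon (2.73-fold). Galnt10 (-0.49) and Galnt11 (-0.44) differed by less than 2-fold. The other members, Galnt9, Galnt13, Galnt14, Galnt15, Galnt16 and Galnt18, were at background on both arrays.

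The enzymes that make the cores were higher in the colon, or differed in that direction by just over 2-fold. C1galt1, which forms core 1 by adding galactose, had 9.76 in small intestine and 11.91 in colon (4.43-fold higher in colon). C1galt1c1, or Cosmc, the chaperone without which C1galt1 does not fold, had 11.86 in small intestine and 12.88 in colon (2.02-fold). B3gnt6, the core 3 enzyme, had 3.29 in small intestine, which is at background, and 8.01 in colon, at least 8.06-fold higher in colon. The only tissue with a core 3 enzyme level above background was thus the colon, and 2 of the 3 core genes passed 3-fold toward it. Of all named genes 3.33% did so.

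The branching enzymes split by tissue. Gcnt3, which makes core 2 and core 4 in mucin-secreting tissues, had 9.54 in small intestine and 11.87 in colon (5.02-fold higher in colon). Gcnt1, the core 2 enzyme of many cell types including leukocytes, had 7.42 in small intestine and 9.24 in colon (3.53-fold). Both lay on the colon side, in contrast to Gcnt2, which branches chains of repeated galactose and GlcNAc (the I antigen) and had 10.05 in small intestine and 8.25 in colon, 3.49-fold higher in small intestine. Of the 8 probe sets of Gcnt2 only the one used was above background. Gcnt7 was at background in both tissues.

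Extension with GlcNAc was the step with the lowest median difference after the cores, -1.46 over 7 genes. Of these, 3 passed 3-fold, each in favour of the colon, as 3.33% of all named genes did. B3gnt5, which starts the lacto-series of glycolipids, had 6.08 in small intestine and 9.78 in colon (13.1-fold higher in colon). B3gnt7, best known for keratan sulfate chains, had 4.10 in small intestine and 7.62 in colon (at least 6.15-fold). B3gnt2, the main enzyme of long galactose and GlcNAc repeats, had 7.67 in small intestine and 9.83 in colon (4.45-fold). The other members above background were B3gnt9, with 5.30 in small intestine and 6.76 in colon (2.74-fold higher in colon), and B3gnt3, an enzyme that extends core 1, which differed by 0.11. B3gnt4 and B3gnt8 were at background.

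The galactosyltransferases held the largest difference of all members in these arrays. B3galt5, which makes type 1 chains by linking galactose to C3 of GlcNAc, had 4.85 in small intestine, just under background, and 11.02 in colon, at least 65.1-fold higher in colon. Its other probe sets gave much smaller values, as described further on. B4galt4, which adds galactose to C4 of GlcNAc, had 5.41 in small intestine and 7.80 in colon (5.25-fold higher in colon). B4galt5 and B4galt6, which both make lactosylceramide, the base of most glycolipids, went the other way by the same amount. B4galt5 had 9.36 in small intestine and 7.53 in colon, and B4galt6 had 11.08 in small intestine and 9.25 in colon, each 3.55-fold higher in small intestine. B3galt4, which acts on gangliosides, had 6.44 in small intestine and 5.28 in colon (2.24-fold higher in small intestine). B4galt1, the enzyme that also makes milk lactose, differed by 0.41 and B4galt3 by 0.34. B4galt7 and B3galt6, which build the linker of proteoglycans, differed by 0.20 and 0.32. B3galt1, B3galt2 and B4galt2 were at background.

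The RefSeq promoter windows of B3galt5 are shown because no other member differed more. Each window runs from 250 bases before to 50 bases after a listed start in the GRCm38.p6 build, and the array cannot tell which of the 3 starts was used. Capitals mark 3 motifs searched on both strands, namely GGGCGG (the GC box), TTTATG (the core bound by Cdx factors) and TATAAA. The first window has 1 TTTATG and the others have none of the 3 motifs.
B3galt5 start 1 (chr16:96235551-96235850, plus strand): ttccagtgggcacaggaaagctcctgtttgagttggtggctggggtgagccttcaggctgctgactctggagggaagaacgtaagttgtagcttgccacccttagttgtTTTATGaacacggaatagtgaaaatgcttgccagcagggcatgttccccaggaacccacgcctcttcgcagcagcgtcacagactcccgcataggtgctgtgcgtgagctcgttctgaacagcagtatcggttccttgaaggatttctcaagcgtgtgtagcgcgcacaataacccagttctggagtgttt
B3galt5 start 2 (chr16:96273263-96273562, plus strand): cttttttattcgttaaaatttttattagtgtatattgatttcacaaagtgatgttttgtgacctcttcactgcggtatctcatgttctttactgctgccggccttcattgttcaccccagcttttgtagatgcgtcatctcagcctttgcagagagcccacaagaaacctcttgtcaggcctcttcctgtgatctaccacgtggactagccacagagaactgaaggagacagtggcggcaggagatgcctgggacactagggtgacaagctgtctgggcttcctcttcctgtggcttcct
B3galt5 start 3 (chr16:96280782-96281081, plus strand): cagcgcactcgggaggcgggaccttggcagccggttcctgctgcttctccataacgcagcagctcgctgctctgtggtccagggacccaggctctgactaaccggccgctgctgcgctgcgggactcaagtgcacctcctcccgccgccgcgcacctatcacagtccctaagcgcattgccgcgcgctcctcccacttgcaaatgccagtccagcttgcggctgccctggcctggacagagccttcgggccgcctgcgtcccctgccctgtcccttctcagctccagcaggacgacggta

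The sialyltransferases, 20 genes in all, had 2 members past 3-fold toward small intestine and 3 toward colon. The shares of all named genes were 3.46% and 3.33%. St3gal4, which puts sialic acid on the galactose of type 2 chains, had 11.08 in small intestine and 7.77 in colon. It was 9.96-fold higher in small intestine, the largest difference of any member in that direction. The related enzymes St3gal3 and St3gal6 were higher in the colon instead. St3gal3, which prefers type 1 chains, had 6.56 in small intestine and 9.73 in colon (8.99-fold higher in colon), and St3gal6 had 8.60 in small intestine and 10.41 in colon (3.51-fold). St6galnac6, which adds sialic acid to the GalNAc or GlcNAc of gangliosides and related chains, had 5.85 in small intestine and 11.26 in colon, 42.6-fold higher in colon. This was the largest difference of a member measured above background on both arrays. St8sia4, a polysialic acid enzyme that is also active in leukocytes, had 9.61 in small intestine and 7.74 in colon (3.67-fold higher in small intestine). Beside it, 5 of 6 T and NK cell markers and 3 of 6 B and plasma cell markers were higher in the small intestine. Of all named genes 3.46% were. None of 4 macrophage markers passed 3-fold in either direction, and their median difference was 0.24. The mean level of the T and NK markers was 8.97 in the small intestine (5.19 to 12.63) and 6.01 in the colon (4.84 to 8.0), with Cd3e at background in the colon. That of the B and plasma markers was 8.65 (5.30 to 14.22) in small intestine and 6.88 (3.87 to 13.32) in colon, with Cd79a at background in the colon. Gcnt1, described above as active in leukocytes among other cells, went the other way, with 7.42 in small intestine and 9.24 in colon. The part of these cells in the level of St8sia4 or of Gcnt1 was not tested.

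Differences between 2-fold and 3-fold were found for St6gal1, which caps N-glycans, with 9.28 in small intestine and 10.70 in colon (2.67-fold higher in colon), and for St6galnac4, with 4.87 in small intestine and 6.32 in colon (at least 2.49-fold). St6galnac4 and St6galnac6 are next to each other on chromosome 2 in the RefSeq table. Smaller differences were seen for St3gal1 (0.88), which caps core 1, for St8sia1 (0.76) and St8sia6 (0.41), and for St6galnac2 (-0.77) and St3gal5 (-0.47), the enzyme of ganglioside GM3. St6galnac1, the enzyme of the sialyl-Tn structure, had no probe set above background, nor did St3gal2, St6gal2, St6galnac3, St6galnac5, St8sia2, St8sia3 and St8sia5.

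The promoter windows of St3gal4 and St3gal3 are shown, marked as for B3galt5, because these enzymes of similar reaction were the most different in opposite directions within their family. St3gal4 has 3 GC boxes and St3gal3 has 2, all read here on the other strand as CCGCCC, and neither holds TTTATG or TATAAA.
St3gal4 (chr9:35116815-35117114, minus strand): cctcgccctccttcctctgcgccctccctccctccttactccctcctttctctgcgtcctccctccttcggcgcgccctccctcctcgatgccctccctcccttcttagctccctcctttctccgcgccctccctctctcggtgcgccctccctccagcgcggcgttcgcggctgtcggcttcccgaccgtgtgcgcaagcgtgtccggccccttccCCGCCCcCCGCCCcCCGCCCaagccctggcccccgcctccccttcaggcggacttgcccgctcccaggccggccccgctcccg
St3gal3 (chr4:118134897-118135196, minus strand): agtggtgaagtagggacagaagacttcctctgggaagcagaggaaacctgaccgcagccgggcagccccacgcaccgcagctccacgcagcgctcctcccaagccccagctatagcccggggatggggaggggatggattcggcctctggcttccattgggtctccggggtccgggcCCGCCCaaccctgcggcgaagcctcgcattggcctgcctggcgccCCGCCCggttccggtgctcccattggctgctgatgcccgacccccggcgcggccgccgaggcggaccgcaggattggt

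RefSeq windows were at hand for 65 of the 88 members, 85 windows in all. A GC box was found in 51 of them (60%), against 35.7% of all 32851 windows in the table. TTTATG was found in 7 (8.24%, against 11.9%) and TATAAA in 1, a window of Gcnt1 (1.18%, against 13.6%). Of the 6 windows of members higher in the small intestine 4 held a GC box, and of the 16 of members higher in the colon 7 did. These are matches of letters and were not tested as binding sites.

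Of the 9 fucosyltransferase genes 2 passed 3-fold, both in favour of the colon, as 3.33% of all named genes did. Fut2, the secretor enzyme that adds fucose to C2 of galactose in epithelia, had 4.56 in small intestine and 7.50 in colon (at least 5.65-fold higher in colon). Fut9, which makes the Lewis x structure, had 3.55 in small intestine and 7.14 in colon (at least 4.42-fold). Both were thus at background in the small intestine. Fut8, the enzyme of core fucose on N-glycans, had 9.09 in small intestine and 10.40 in colon (2.48-fold). Fut11 had 6.06 in small intestine and 7.20 in colon (2.20-fold), and Fut4, another Lewis x enzyme, differed by -0.79. Fut1, Fut7, Fut10 and the pseudogene Fut4-ps1 were at background.

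None of the 3 measured B4galnt genes and none of the 14 Chst genes reached 3-fold. Of all named genes 3.46% did toward small intestine and 3.33% toward colon. Groups this small, with most Chst genes at background, are not set apart from all genes by this. B4galnt2, which makes the Sda structure of gut mucins, had 12.95 in small intestine and 13.62 in colon, a difference of -0.67. B4galnt1, which makes gangliosides, had 7.56 in small intestine and 6.27 in colon (2.45-fold higher in small intestine), and B4galnt4 differed by 0.70. Of the sulfotransferases only 4 were above background in either tissue. Chst4, which sulfates GlcNAc, had 5.47 in small intestine and 6.54 in colon (2.10-fold higher in colon). Chst1, an enzyme of keratan sulfate, and the chondroitin enzymes Chst11 and Chst15 differed by 0.01, 0.06 and -0.12. Chst5 was at background, as were Chst2, Chst3, Chst7, Chst8, Chst9, Chst10, Chst12, Chst13 and Chst14.

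**Figure D2:**
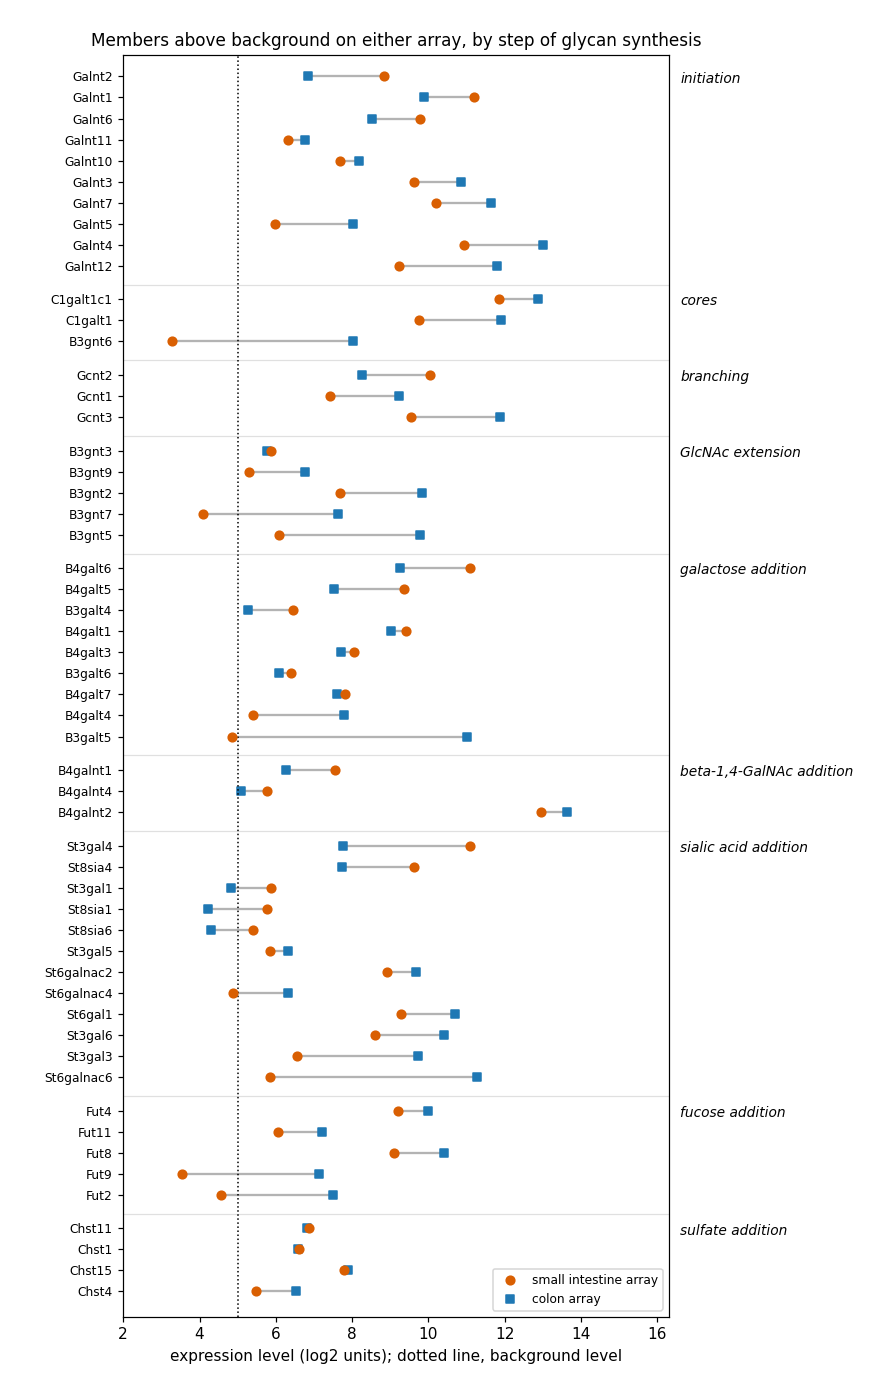
Log2 expression of the 54 members above background on either array, on the small intestine array (orange circles) and the colon array (blue squares), in groups by step of glycan synthesis and, within a group, in order of the difference. The dotted line marks the background level of 5, and levels of different genes come from different probes and cannot be set against each other. B3gnt6, B3gnt7, B3galt5, Fut9 and Fut2 have their small intestine point left of the line and their colon point 3-fold or more to the right.

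The members differ in what they mainly act on, and the label of mucin enzymes fits only part of them. By their best known acceptor, 25 act on mucin-type O-glycans, 10 on glycolipids, 10 on proteoglycans and 43 on outer chains shared by several carriers or on N-glycans. Of the 25 for mucin-type chains 1 (Galnt2) was higher in small intestine and 7 were higher in colon. Of the 10 for glycolipids 2 were higher in each tissue, and of the 10 for proteoglycans only B3gnt7 passed 3-fold, in the colon. Among the 43 shared ones 3 passed 3-fold toward small intestine and 7 toward colon. Of all named genes 3.46% passed toward small intestine and 3.33% toward colon. The classes were drawn after the values were seen, some are small, and no contrast between them was tested.

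Single probe sets showed how far the value of a gene depends on where it is measured. Of the 23 members past 3-fold, 15 had 1 probe set above background on either array and 8 had several. In none of the 8 did all these sets pass 3-fold, but no set of the 23 genes differed in the opposite direction. For B3galt5 the set used differed by -6.02 and 2 further sets by -0.49 and -0.41, each at background in the small intestine and close to it in the colon. The 4 sets of B4galt6 differed by 0.60 to 3.28, the 3 of C1galt1 by -2.15 to -1.47, and the 4 of St3gal6 above background by -2.60 to -0.78. Galnt7 and B4galnt2 were not counted as higher in either tissue, yet other sets passed 3-fold. These were the sets of Galnt7 at -3.07 and -2.92 and a set of B4galnt2 at -1.64. Over the 19 members with several sets above background, the pooled SD of the differences within a gene was 1.08, against 0.60 over 4142 genes. Without B3galt5 it was 0.70 over 18 members.

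**Figure D3:**
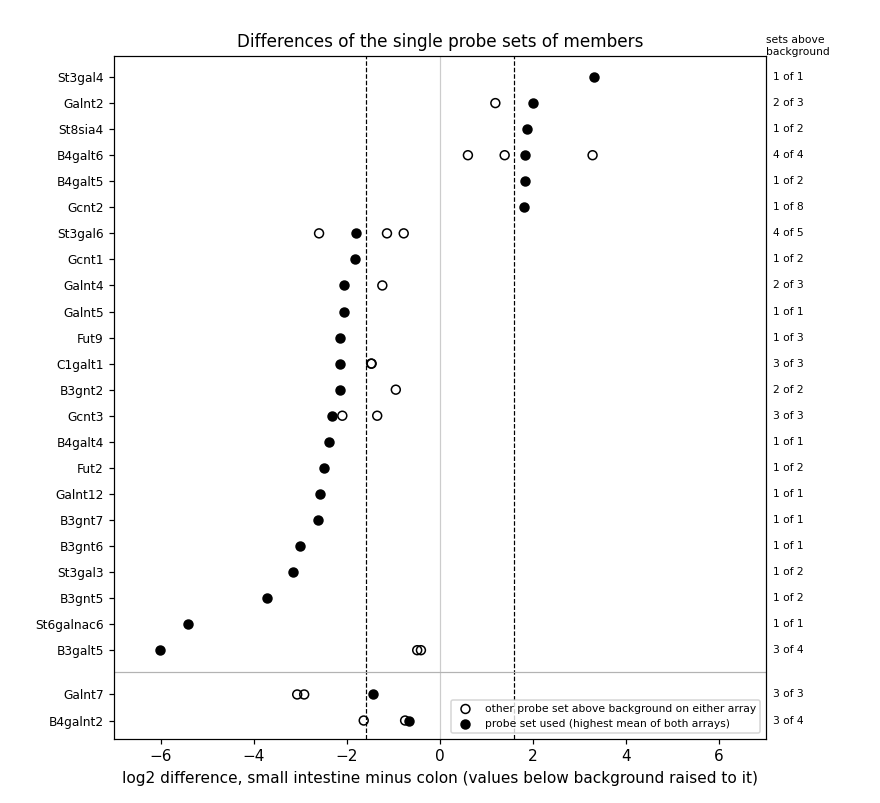
Log2 differences of all probe sets above background on either array, for the 23 members past 3-fold and, under the line, for Galnt7 and B4galnt2. Filled points are the sets used for the gene, open points the others, dashed lines mark 3-fold, and the numbers on the right give the sets above background of all sets of the gene. No point of the 23 genes lies on the other side of 0 from its filled point.

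Genes that supply these enzymes with activated sugars and sulfate also differed. Of 28 measured genes 2 were past 3-fold in favour of small intestine and 5 in favour of colon, with a median difference of -0.76. Of all named genes 3.46% were past 3-fold for small intestine and 3.33% for colon. Slc35a1, which carries CMP-sialic acid into the Golgi, had 8.80 in small intestine and 12.72 in colon (15.2-fold higher in colon). Gne, the first enzyme of sialic acid synthesis, had 7.18 in small intestine and 10.19 in colon (8.05-fold), and Nans, which makes its phosphate, had 8.54 in small intestine and 10.83 in colon (4.89-fold). The other colon genes were the sulfate transporter Slc26a2, with 11.35 in small intestine and 13.42 in colon (4.22-fold), and Gnpnat1, an enzyme of UDP-GlcNAc supply, with 9.24 in small intestine and 11.14 in colon (3.74-fold). Nanp and Cmas, the remaining enzymes of the route to CMP-sialic acid, differed by -0.65 and -0.88. Gnpnat1, Nanp and Cmas were named after their values were seen. In the small intestine, Slc35c2, a Golgi transporter linked to fucosylation, had 9.17 against 6.10 in the colon (8.42-fold higher in small intestine). Bpnt1, which breaks down the by-product of sulfation, had 12.52 in small intestine and 10.86 in colon (3.16-fold). Of 10 measured mucin genes 4 were above background on either array. Only Muc2 of these, the main secreted mucin of the gut, passed 3-fold, with 12.19 in small intestine and 14.94 in colon (6.76-fold higher in colon). Muc3 (-1.25) and Muc4 (-1.03) also lay on the colon side, and Muc13 differed by 0.05. Muc2 is also one of the goblet cell markers above.

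**Figure D4:**
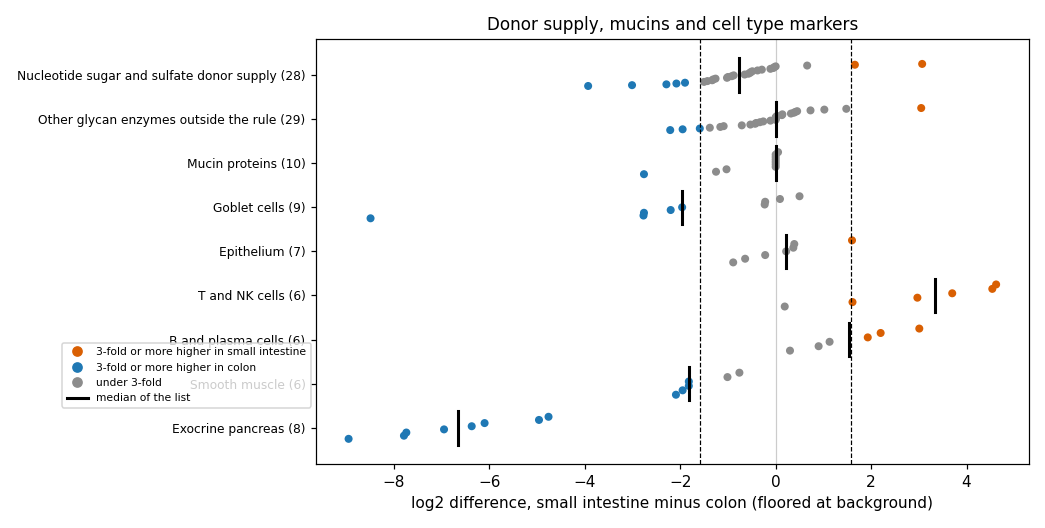
Log2 differences of the genes of the donor supply, further glycan enzymes, mucins and markers of cell types, with the number of measured genes in brackets and a black bar at the median of each list. Dashed lines mark 3-fold, and values below background were raised to it. The medians are -0.76 for donor supply, -1.96 for goblet cells, 3.34 for T and NK cells and -6.66 for exocrine pancreas.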

How the data were processed

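The 2 samples were Affymetrix Mouse Genome 430 2.0 arrays, 1 per tissue. The values deposited by the authors are log2 expression values per probe set, 45101 on each array, between 0.73 and 16.97, with no depth to give and a precision limited by the number of arrays. The labels name GCRMA, the paper RMA for arrays it places in another series, and versions and genome build are not given in the sources used here. GCRMA leaves a low mode of unexpressed sets, so folds against dim values depend on the method. Strain, age in weeks and gut segment were not taken from the paper for this reason.

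Probe sets were named from the platform annotation. Sets of 1 gene numbered 34958, and 34754 of them matched RefSeq (GRCm38.p6) by Entrez identifier without a change of symbol. Another 932 named several genes and were left out, 2 of them with a member. The gene's set with the highest mean was used, values under 5 were raised to 5, and 3-fold was the limit. The study also used 3-fold, but for sequencing coverage and with another formula. Members, lists and motifs were chosen with earlier results of these data known. Named were all members with their values by size of difference, and up to 4 genes per direction of each further list, with the exceptions given in the text. The acceptor classes and the 3 promoters shown were chosen after the values were seen. Steps were tested on simulated data. Alternatives were backgrounds of 4 and 6, no floor, folds of 2 and 5, quantile normalization, centring, the median over probe sets, and leaving out sets marked _x, _s or _a. Python 3.11.15, numpy 2.4.6, pandas 2.3.3 and matplotlib 3.10.9 were used.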

Additional observations from a re-analysis of the deposited data

How the results depend on the processing

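No difference of the 23 members past 3-fold changed direction under any alternative that gave it a value. Most alternatives could not have reversed one. Another background level cannot change a direction, and centring on the mean of the spike-ins shifts by 0.25, where the smallest of the 23 is 1.80 in size. With the limit kept at 3-fold, 10 of the 23 members kept their call in every alternative that gave a value. With folds of 2 and 5 the counts were 10 and 1 members for small intestine and 26 and 10 for colon. At 5-fold all genes gave 1.7% for small intestine, where the members gave 1.14%, and 1.43% for colon, where the members gave 11.4%. With the median of all sets of a gene the counts were 2 for small intestine (2.27%, against 2.46% of all genes) and 9 for colon (10.2%, against 2.17%), and 9 of the 17 colon members were lost, B3galt5 (-0.45) among them, and Galnt7 gained. Without sets marked _x, _s or _a, which leaves 78 of the 88 members, 3 (3.85%, against 3.05% of all genes) passed toward small intestine and 14 (17.9%, against 3.03%) toward colon, because St3gal4, St8sia4, St3gal3, B3gnt2 and B4galt4 had no set left and that of B4galt5 was at background (0.00). A background of 6 left 15 colon members, without Fut2 (-1.50) and Fut9 (-1.14). Quantile normalization, centring on the median or on the median of the spike-ins, a background of 4 and no floor kept all 23 calls, and with no floor the median over the members was 0.01. Centring on the mean of the spike-ins, chosen after seeing the data and set by bioC, adds 0.25 to every difference and left 15 colon members, without Gcnt1 (-1.57) and St3gal6 (-1.56). No paired analysis was possible because each tissue has 1 array.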

Other observations

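Of 29 measured glycan enzyme genes outside the families above, 1 passed 3-fold in favour of small intestine and 3 in favour of colon, with a median difference of 0.00, beside 3.46% of all named genes for small intestine and 3.33% for colon. Gal3st2, which sulfates C3 of galactose and is not a Chst gene by name, had 11.49 in small intestine and 8.44 in colon (8.27-fold higher in small intestine). No Chst gene reached 3-fold, but only 4 of the 14 were above background on either array. A4gnt, known for the GlcNAc caps of stomach gland mucin, had 2.77 in small intestine and 7.21 in colon (at least 4.63-fold higher in colon). The sialidase Neu1 had 7.06 in small intestine and 9.0 in colon (3.86-fold), and Casd1, which adds acetyl groups to sialic acid, had 9.74 in small intestine and 11.33 in colon (3.01-fold). Siae, which removes those groups, had 7.23 in small intestine and 5.75 in colon, a difference of 1.48 that is short of 3-fold. Siae was named after its value was seen.

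The levels of members at background differed by less than 2-fold between the arrays. All 34 lay between 2.29 and 4.64, and their unfloored differences did not exceed 0.83 in size, the largest being that of B3gnt4 with 2.29 in small intestine and 3.12 in colon. The 2 other pairs of members that neighbour each other on a chromosome besides St6galnac4 and St6galnac6 were St6galnac2 with St6galnac1 and St6galnac5 with St6galnac3, none of which reached 2-fold.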
